A study of Mus musculus with 5 samples.

Results

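The co-receptors that present LPS to Toll-like receptor 4 and the adaptors that carry the signal inside the cell were examined in LPS-activated bone marrow-derived macrophages (BMMs), as a set of 10 genes given by name: Cd14, Ly96, Myd88, Ticam1, Ticam2, Tirap, Irak1, Irak3, Irak4 and Traf6. All 10 were among the 24419 gene rows of the table, and all 10 passed the filter of an average of 1 CPM or more (the UMIs of a gene scaled to the library total), which left 10088 genes for testing. The BMMs came from C57BL/6 mice (C57BL6/J in the design text) and were grown with 50 ng/ml M-CSF for 5 days and then activated with 100 ng/ml LPS, so every library, the controls included, had seen LPS and none shows the unstimulated state. The PBS group (n = 2, named in the sample titles as not treated) was then kept with PBS and the Sema3G group (n = 3) with 100 ng/ml recombinant Sema3G, a secreted class 3 semaphorin, for 18 h. The comparison asks whether Sema3G changed the RNA of these genes on top of LPS. The age of the mice, and whether the replicates came from separate animals or cultures, are not stated in the labels or the methods, so p values measure the spread between these samples, which may be technical.

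LPS of Gram-negative bacteria is handed by CD14, a protein anchored in the outer leaflet of the cell membrane, to MD-2 (encoded by Ly96), which holds it against the outer part of TLR4. The receptor then recruits the adaptor pair TIRAP and MyD88 at the cell surface, and the pair TRAM (Ticam2) and TRIF (Ticam1) after uptake into endosomes. MyD88 assembles with the kinases IRAK4 and IRAK1, which engage the ubiquitin ligase TRAF6 and through it NF-kB, whereas TRIF leads to interferon regulatory factors. Macrophages are the classical cells of this response, and IRAK3 (IRAK-M) is known in them as a brake on it that is induced by LPS itself.

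Each library held between 1798469 and 2215855 UMIs (unique molecular identifiers, each standing for 1 captured RNA 3′ end), of which 65.9% to 77.6% fell on listed genes. Because 1 UMI is read per RNA whatever its length, CPM can be set side by side between genes without a correction for length. The listed genes took 75.6% to 77.6% of the UMIs in the PBS libraries and 65.9% to 71.3% in the Sema3G libraries, and Rn45s, the ribosomal RNA precursor, took 1.01% and 3.19% with PBS against 6.31%, 7.40% and 7.88% with Sema3G. Both enter the total by which CPM are divided, and the median log2 fold change (log2FC, Sema3G minus PBS) over all genes tested was -0.22. Changes are therefore given against that median as well, or after scaling with TMM factors (trimmed mean of M values), which brought the median to -0.036. All 8 macrophage markers looked up were detected, at a summed 8517 to 11672 CPM with PBS and 8213 to 8531 CPM with Sema3G, whereas the lymphoid markers Cd3e, Cd3g and Ncr1 were listed at 0 in every library. The neutrophil list summed to 116 to 169 CPM with PBS and 103 to 133 CPM with Sema3G, with Elane and Ngp listed at 0, and the stromal list to 24.1 to 56.6 CPM and 21.7 to 41.7 CPM. S100a8 alone held 1264 of the 1294 UMIs of the neutrophil list. The dendritic cell list and the list of mast cells and basophils held 1 UMI each. In bulk RNA, fewer cells of a type and less RNA per cell cannot be told apart.

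The 10 genes spanned a 162-fold range of RNA levels. Cd14 was by far the most abundant, with a mean of 930 CPM over the 5 libraries, higher than 99.4% of the genes tested, and it made up 51.0% to 64.2% of the summed RNA of the 10 genes. Irak3, the inhibitory member of the IRAK family, came next at 260 CPM, above 96.9% of the genes tested. Then came Myd88 at 102 CPM, Irak1 at 73.1 CPM, Irak4 at 63.3 CPM, Ly96 at 53.5 CPM and Ticam2 at 47.1 CPM. The lowest were Tirap at 17.7 CPM, Traf6 at 12.9 CPM and Ticam1 at 5.74 CPM, the last above 24.4% of the genes tested. From Myd88 down to Ticam2, neighbours in this order differed by less than their summed SDs over the libraries. Irak1 was above Irak4 in 4 of 5 libraries, Irak4 above Ly96 in 4 of 5, and Ly96 above Ticam2 in 2 of 5, so that these neighbours have no firm order. Within both adaptor pairs the RNA levels were unequal, with Myd88 above Tirap and Ticam2 above Ticam1 in every library.

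**Figure D1:**
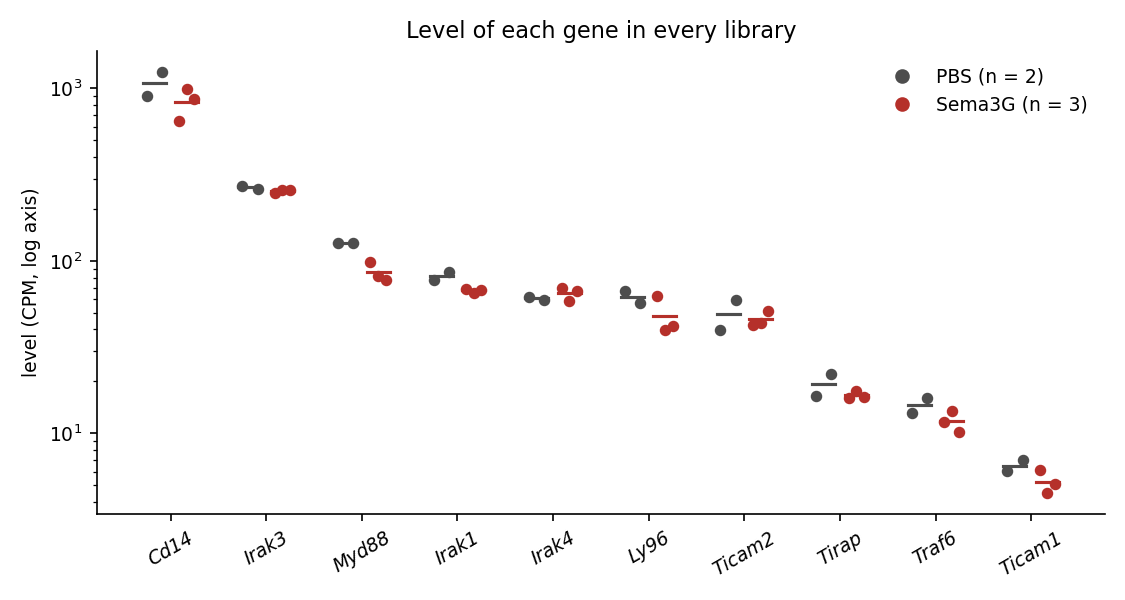
RNA level of the 10 genes in each library (CPM, log axis), with filled points for single libraries in grey for PBS and red for Sema3G, and short lines for group means. Mean levels run from 930 CPM for Cd14 to 5.74 CPM for Ticam1, and the only genes whose groups did not overlap were Myd88, Irak1 and Irak3.

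None of the 10 genes passed the test for a difference between Sema3G and PBS (limma on log2(CPM + 1), adjusted p below 0.05), where 1.80% of all genes tested did. At an unadjusted p below 0.05 there was 1 gene, Myd88, and it was lower with Sema3G, against 14.2% of all genes tested. By the quasi-likelihood test of edgeR on UMI counts 0 of 10 passed after adjustment (4.67% of all genes did) and 0 of 10 before it (17.8%). DESeq2 gave an adjusted p for 9 of the 10, all but Ticam1, of which 0 passed (3.10% of all genes did). In DESeq2 0 of 10 were below an unadjusted p of 0.05 (920 of the 10088 genes were). The 3 Sema3G libraries were all lower in CPM than both PBS samples for 3 of 10 genes, Myd88, Irak1 and Irak3, which is close to the 26.5% of all genes. On the TMM scale only Myd88 lay below (15.8% of all genes did) and only Irak4 lay above (17.5% of all genes did), and limma on that scale passed 0 of 10 genes (background 3.22%), with Myd88 the 1 gene lower at an unadjusted p below 0.05 (5.09% of all genes). Of the log2FC values, 9 of 10 were below 0 on the CPM scale (67.5% of all genes were) and 6 of 10 on the TMM scale (53.3% of all genes), and relative to the median of all genes 4 lay above and 6 below. The median of the 10 genes was -0.27, that is -0.046 against the median of all genes, and this relative value was -0.23 without PBS replicate 1 and 0.15 without PBS replicate 2.

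**Figure D2:**
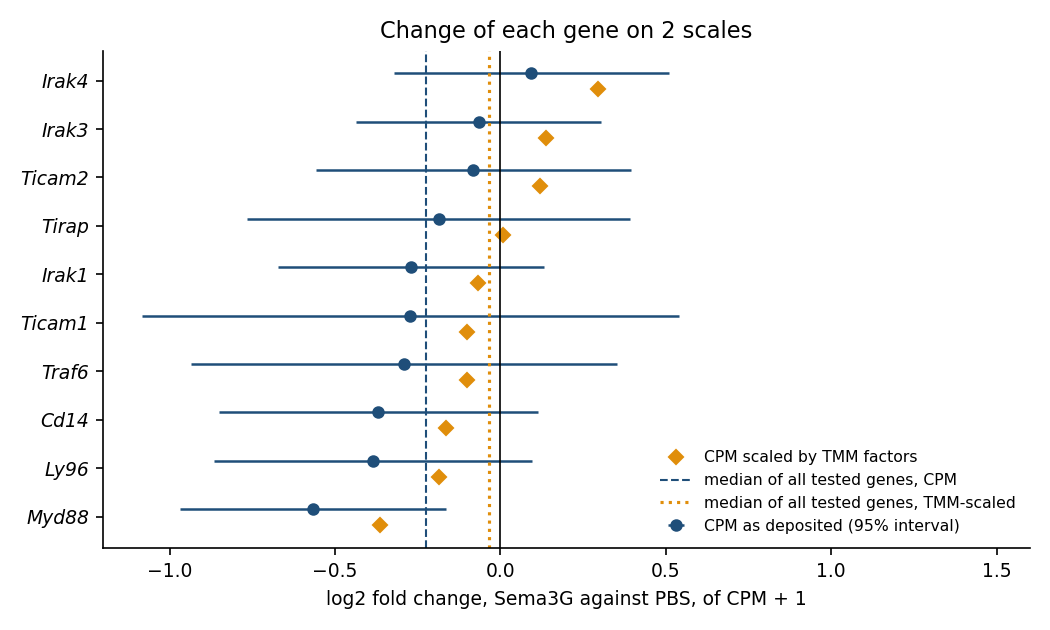
Log2FC of the 10 genes, Sema3G minus PBS, with 95% intervals from limma on log2(CPM + 1), and as diamonds the values on the TMM scale, with the medians of all genes tested as a dashed (-0.22) and a dotted (-0.036) line. Myd88 is the only gene whose interval on the CPM scale excludes 0, and it does not pass after adjustment over all genes.

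Of the LPS co-receptors, Cd14 differed more between replicates than between the group means. It had 1643 and 2329 UMIs under PBS and 1167, 2192 and 1869 with Sema3G, or 903 and 1247 CPM against 649, 989 and 862 CPM. The groups overlapped, Sema3G replicate 1 being the lowest and PBS replicate 2 the highest library. Its mean was 1075 ± 243 CPM with PBS (SD, n = 2) and 833 ± 172 CPM with Sema3G (SD, n = 3), a log2FC of -0.37 with a standard error (SE) of 0.23 (limma adjusted p = 0.358). It was -0.60 without PBS replicate 1 and -0.14 without PBS replicate 2. On the TMM scale the log2FC of Cd14 was -0.17 (limma adjusted p = 0.773). Depth does not limit this gene. PBS replicate 2 was 1.38-fold above PBS replicate 1 (exact 95% interval 1.30 to 1.47) and Sema3G replicate 2 was 1.53-fold above Sema3G replicate 1 (1.42 to 1.64), intervals that cover counting error only. Within a group, 2 of 10 comparisons of PBS libraries over the 10 genes and 6 of 30 of Sema3G libraries went beyond counting error, and Cd14 accounted for 4 of these 8. The genes whose profile over the 5 libraries was most like that of Cd14, by root mean square difference of centred log2 values among 6380 genes averaging 10 CPM or more, were Nfil3, a basic leucine zipper transcription factor (0.0537), S100a4, a calcium-binding protein (0.0550), and Adssl1, an enzyme of AMP synthesis (0.0553). Cd14 is a compact gene on the minus strand of chromosome 18 (36725067 to 36726798, GRCm38), and no other annotated gene overlaps it.

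Ly96, which encodes the LPS-binding partner of TLR4, had 121 and 107 UMIs under PBS and 112, 88 and 91 with Sema3G. Its CPM were 66.5 and 57.3 against 62.3, 39.7 and 41.9, so Sema3G replicate 1 lay among the PBS libraries while the other two lay below them. The log2FC was -0.39 (SE 0.23, limma adjusted p = 0.337) on the CPM scale and -0.19 on the TMM scale (limma adjusted p = 0.701). On the CPM scale it ranged from -0.58 to -0.27 when single libraries were left out. Sema3G replicate 2 had 0.638-fold the CPM of Sema3G replicate 1 (exact 95% interval 0.477 to 0.851). Tlr4 itself, the signalling receptor, was sparser than Ly96, with 35 and 39 UMIs against 30, 33 and 30 (log2FC -0.39, SE 0.28, limma adjusted p = 0.421). On the TMM scale the log2FC of Tlr4 was -0.19 (limma adjusted p = 0.762). Ratios between genes, here and for the other pairs, were chosen after their values were seen. The ratio of Ly96 to Tlr4 UMIs was 3.46 and 2.74 with PBS and 3.73, 2.67 and 3.03 with Sema3G and overlapped between the groups, as did that of Cd14 to Ly96, at 13.6 and 21.8 against 10.4, 24.9 and 20.5. Ly96 lies on chromosome 1 (16688051 to 16709611, plus strand, GRCm38).

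Among the adaptors, Myd88 had the lowest level with Sema3G relative to PBS. It had 231 and 238 UMIs under PBS and 178, 182 and 167 with Sema3G, although PBS replicate 2 was a smaller library than Sema3G replicates 2 and 3. In CPM these were 126.9 and 127.4 against 99.0, 82.1 and 77.0. The PBS libraries were nearly equal and all 3 Sema3G libraries lay below them. The mean was 127 ± 0.349 CPM (SD, n = 2) and 86.0 ± 11.5 CPM (SD, n = 3), and the log2FC was -0.57 (SE 0.19, 95% interval -0.97 to -0.17, unadjusted p = 0.00821, limma adjusted p = 0.122). An exact two-sided permutation test of the 5 values gave p = 0.2, the smallest that 2 against 3 samples allow. On the TMM scale the levels were 111 and 123 against 96.6, 89.0 and 86.2, and the log2FC was -0.36 (unadjusted p = 0.0463, limma adjusted p = 0.296). The adjusted p was 0.340 by edgeR's quasi-likelihood test and 0.605 by DESeq2. Without Sema3G replicate 1 Myd88 passed, with a log2FC of -0.67 (limma adjusted p = 0.0333), in a fit where 8.50% of all genes tested passed. The shares of UMIs on Rn45s and on no listed gene, given above, moved with the groups. With CPM taken over the listed genes without Rn45s, which leaves both out of the total, the log2FC of Myd88 was -0.28 (unadjusted p = 0.121, limma adjusted p = 0.482). The RNAs with the most similar profile to Myd88, by the measure used for Cd14, were Ppp2cb, a catalytic subunit of protein phosphatase 2A (0.0212), Slc35c1, a GDP-fucose transporter (0.0277), and Arf3, a small GTPase (0.0281). In limma each of them had a log2FC between -0.55 and -0.53 with an adjusted p from 0.138 to 0.183. These values lie near that of Myd88 because the genes were picked by profile in the same libraries.

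Myd88 lies on chromosome 9 (119335934 to 119341411, minus strand, GRCm38), inside the annotated span of Slc22a14 on the same strand, a gene listed at 0 in all 5 libraries, and overlaps exons of Acaa1a on the opposite strand, away from its own 3′ end. Acaa1a had 98 and 102 UMIs under PBS and 76, 80 and 95 with Sema3G, lower in CPM in all 3 Sema3G libraries (log2FC -0.41, limma adjusted p = 0.273). The overlap lies at the 5′ ends of both genes, away from the 3′ ends that the libraries capture. Strand use in the counting is not stated, so any reads that fall in the overlap cannot be told apart. Promoters were matched by symbol in RefSeq (GRCm38.p6) for 7 of the 10 genes and cover 250 bases before the start site to 50 after it. Those of Myd88 (chr9:119339969-119340268, minus strand) and Irak4 (chr15:94543410-94543709, plus strand) are printed because these genes had the lowest and the highest log2FC of the 10. Capitals mark the single match to the core of the interferon-stimulated response element, here GAAA followed by any 2 bases and GAAA, searched on both strands. Its first base in the Myd88 promoter lies at -40 from the start site, no match was found in the Irak4 promoter, and 3.44% of 32851 RefSeq promoters of the same length hold one.
Myd88: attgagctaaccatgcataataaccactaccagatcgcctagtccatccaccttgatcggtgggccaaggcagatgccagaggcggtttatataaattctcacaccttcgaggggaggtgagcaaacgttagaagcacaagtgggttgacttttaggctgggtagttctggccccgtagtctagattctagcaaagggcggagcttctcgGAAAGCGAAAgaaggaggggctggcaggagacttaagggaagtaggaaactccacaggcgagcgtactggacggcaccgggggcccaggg
Irak4: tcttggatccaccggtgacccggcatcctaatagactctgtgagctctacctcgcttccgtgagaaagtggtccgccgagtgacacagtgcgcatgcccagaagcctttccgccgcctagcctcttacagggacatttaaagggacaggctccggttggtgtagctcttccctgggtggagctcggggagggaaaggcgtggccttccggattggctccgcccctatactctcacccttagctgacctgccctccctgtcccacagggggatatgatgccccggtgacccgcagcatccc
A consensus of NF-kB, held by 8.46% of all promoters, was found in neither of these and, of the 7, in that of Irak1 only. These matches describe the letters in the window and do not show that a factor binds there.

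TIRAP, the sorting adaptor that places MyD88 at the membrane, was encoded by one of the sparser RNAs. Tirap had 30 and 41 UMIs under PBS and 29, 39 and 35 with Sema3G, and its CPM of 16.5 and 21.9 against 16.1, 17.6 and 16.1 overlapped (log2FC -0.19, SE 0.28, limma adjusted p = 0.718). After TMM scaling its log2FC was 0.0068, so its direction depended on the scaling. The gene is on chromosome 9 (35184551 to 35200291, minus strand, GRCm38).

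On the endosomal branch, Ticam1 (TRIF) was the least abundant of the 10, with 11 and 13 UMIs against 11, 10 and 11. These are 6.04 and 6.96 CPM with PBS and 6.12, 4.51 and 5.07 CPM with Sema3G, where 3 UMIs correspond to 1.35 to 1.67 CPM. The log2FC was -0.27, but its 95% interval of -1.08 to 0.54 (limma adjusted p = 0.705) leaves differences of either sign possible at this depth. On the TMM scale the log2FC of Ticam1 was -0.10 (limma adjusted p = 0.923). Its bridging adaptor Ticam2 (TRAM) had 72 and 110 UMIs under PBS and 76, 97 and 111 with Sema3G, or 39.6 and 58.9 CPM against 42.3, 43.8 and 51.2 CPM. All 3 Sema3G libraries lay between the PBS libraries, which differed 1.49-fold (exact 95% interval 1.10 to 2.03). The log2FC was -0.08 (SE 0.23, limma adjusted p = 0.861), and it was 0.12 on the TMM scale and between -0.36 and 0.20 when single libraries were left out. The ratio of Ticam2 to Ticam1 UMIs was 6.55 and 8.46 with PBS and 6.91, 9.70 and 10.1 with Sema3G. Ticam1 lies on chromosome 17 (56269319 to 56276786, minus strand) and Ticam2 on chromosome 18 (46557291 to 46574533, minus strand, GRCm38). Exons of Ticam2 and Tmed7, a gene of the secretory pathway on the same strand, overlap in the annotation, and Tmed7 had 80 and 90 UMIs under PBS and 46, 76 and 92 with Sema3G, so the split of reads between these genes is uncertain.

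In Irak1, Irak3 and Irak4, no pair of libraries of the same group differed beyond counting error. Irak4, the kinase that joins MyD88 first, had 113 and 111 UMIs under PBS and 125, 130 and 145 with Sema3G. Its CPM were 62.1 and 59.4 against 69.5, 58.7 and 66.8, overlapping through Sema3G replicate 2, and the log2FC was 0.09 (SE 0.20, 95% interval -0.32 to 0.51, limma adjusted p = 0.811). On the TMM scale its levels were 54.4 and 57.2 against 67.9, 63.6 and 74.8, with all Sema3G libraries above (log2FC 0.29, limma adjusted p = 0.456). Twf1 lies on the opposite strand and reaches the 3′ end of Irak4, and had 116 and 73 UMIs under PBS and 127, 120 and 116 with Sema3G. Whether the counting used the strand is not stated, and without it reads of these genes cannot be told apart.

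Irak1, the kinase that IRAK4 phosphorylates and that then engages TRAF6, had 140 and 161 UMIs under PBS and 124, 145 and 147 with Sema3G. Its CPM were 76.9 and 86.2 against 68.9, 65.4 and 67.8, all Sema3G libraries below, with a log2FC of -0.27 (SE 0.19, limma adjusted p = 0.421). On the TMM scale the groups overlapped and the log2FC was -0.07, and with CPM over listed genes without Rn45s it was 0.018. Irak3, the brake, had 495 and 489 UMIs against 447, 570 and 562. In CPM it was the most even of the 10 genes over the 5 libraries, at 272 and 262 with PBS and 249, 257 and 259 with Sema3G. The Sema3G libraries lay just below, the log2FC was -0.07 (95% interval -0.44 to 0.31, limma adjusted p = 0.855), and on the TMM scale it was 0.14. Irak1 is on chromosome X (74013914 to 74023918, minus strand), Irak3 on chromosome 10 (120141648 to 120202130, minus strand) and Irak4 on chromosome 15 (94543643 to 94581815, plus strand), all GRCm38. Irak1 overlaps the microRNA genes Mir5132 and Mir718, and Irak3 overlaps Tmbim4 on the opposite strand at its 5′ end.

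Traf6, the ubiquitin ligase on which the MyD88 branch converges, had 24 and 30 UMIs under PBS and 21, 30 and 22 with Sema3G. The CPM of 13.2 and 16.1 against 11.7, 13.5 and 10.1 overlapped (log2FC -0.29, SE 0.31, limma adjusted p = 0.592). Its log2FC was -0.10 after TMM scaling, -0.022 with CPM over listed genes without Rn45s and -0.16 without PBS replicate 2. Its 95% interval of -0.93 to 0.35 is wide at these counts. Traf6 lies on chromosome 2 (101678429 to 101701669, plus strand, GRCm38), with no overlapping gene.

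Shares within a library do not depend on the total that the CPM are divided by. The 8 intracellular genes, that is all but Cd14 and Ly96, together held 1011 to 1203 UMIs per library. Their shares are parts of the same sum and so are not independent of each other. Myd88 made up 20.3% ± 0.530 of them with PBS (SD, n = 2) and 15.6% ± 1.88 with Sema3G (SD, n = 3), with all Sema3G libraries below (exact two-sided permutation p = 0.2, the smallest possible here). Irak4 made up 9.71% ± 0.581 and 11.8% ± 0.830, with all Sema3G libraries above, and Irak1 13.0% ± 0.672 and 12.2% ± 0.118, with all below, at the same p = 0.2 of the exact test. Irak3 took the largest share, 42.7% ± 2.38 and 46.1% ± 1.69, and overlapped, as did Ticam1, Ticam2, Tirap and Traf6. Groups without overlap were common among all genes, with 15.8% below and 17.5% above on the TMM scale. No such background was computed for shares. The ratio of Myd88 to Irak4 UMIs was 2.04 and 2.14 with PBS and 1.42, 1.40 and 1.15 with Sema3G, without overlap between the groups (exact two-sided permutation p = 0.2, the smallest possible). This measure needs no scaling, but is subject to the reads of Twf1. It also pairs the genes with the lowest and the highest log2FC of the 10, so a lack of overlap was favoured by the choice.

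**Figure D3:**
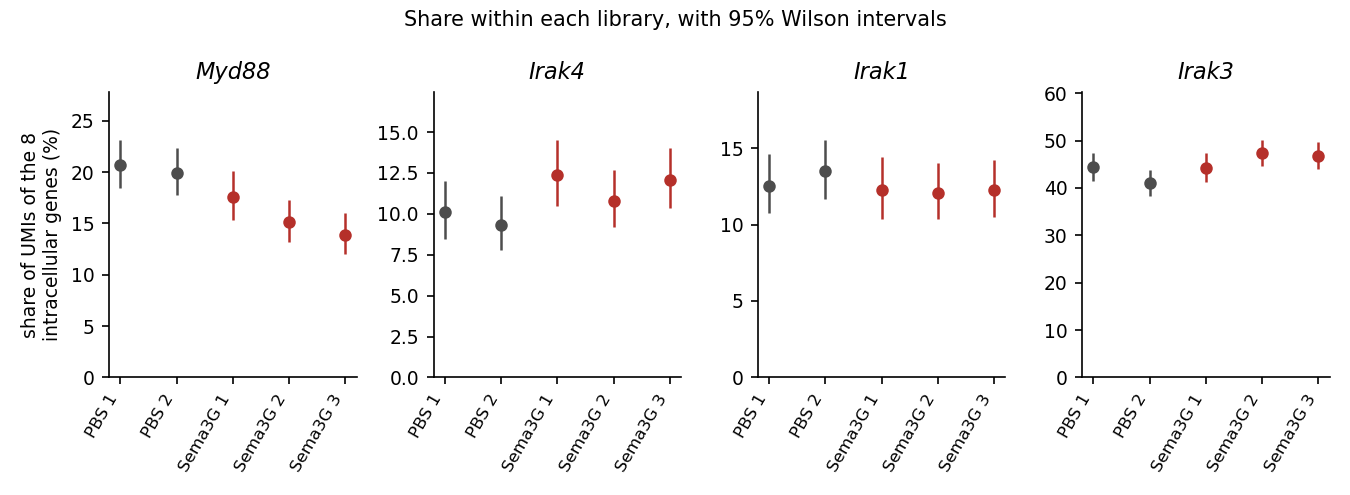
Share of the UMIs of the 8 intracellular genes held by Myd88, Irak4, Irak1 and Irak3 in each library (percent of 1011 to 1203 UMIs, bars are 95% Wilson binomial intervals for counting error). The Myd88 share is lower with Sema3G and the Irak4 share is higher, without overlap between the groups. No background over all genes was computed for such shares.

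The rest of the pathway was read from a list of 53 further genes of LPS and Toll-like receptor signalling, of which 45 passed the filter. Of these 1 rose and 1 fell at an adjusted p below 0.05 from limma, a test that 1.80% of all genes passed. At an unadjusted p below 0.05, 3 were higher (6.83% of all genes were) and 11 lower (14.2% of all genes). After TMM scaling these were 3 higher (11.2% of all genes) and 3 lower (5.09%), namely Irak2, the ubiquitin-conjugating enzyme gene Ube2n and the NF-kB subunit gene Rela, so the count of 11 depended on the scaling. At an unadjusted p below 0.05 edgeR's quasi-likelihood test gave 5 of the 42 it tested (17.8% of all genes) and DESeq2 5 of 45 (920 of the 10088 genes). The median log2FC of the 45 was -0.23, beside -0.22 for all genes tested. The gene that rose was Pik3ap1 (BCAP), a TIR-domain adaptor that links Toll-like receptors to PI3-kinase. It had 11 and 13 UMIs under PBS and 51, 76 and 88 with Sema3G, and went from 6.50 ± 0.648 CPM (SD, n = 2) to 34.4 ± 6.11 CPM (SD, n = 3), a log2FC of 2.23 (SE 0.28, limma adjusted p = 0.000252). Its UMIs were 0.367 and 0.317 times those of Tirap with PBS and 1.76, 1.95 and 2.51 times with Sema3G.

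The gene that fell was Irak2, the kinase of the IRAK family that sustains late NF-kB signalling. It had 167 and 156 UMIs under PBS and 71, 122 and 106 with Sema3G, or 87.6 ± 5.83 CPM (SD, n = 2) and 47.8 ± 7.84 CPM (SD, n = 3), a log2FC of -0.87 (SE 0.21, limma adjusted p = 0.0418). The call was lost on the TMM scale (log2FC -0.67, limma adjusted p = 0.105), by edgeR's quasi-likelihood test (adjusted p = 0.106) and by DESeq2 (adjusted p = 0.251), and without either PBS replicate (adjusted p = 0.147 and 0.0664 from limma), Sema3G replicate 2 (0.130) or Sema3G replicate 3 (0.167), where the log2FC itself was between -0.98 and -0.81. Merging Sema3G replicates 2 and 3 lost the call too (log2FC -0.93, limma adjusted p = 0.205). The ratio of Irak2 to Irak4 UMIs was 1.48 and 1.41 with PBS and 0.568, 0.939 and 0.731 with Sema3G, without overlap.

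Ly86 (MD-1), a relative of Ly96 that pairs with the TLR4-like receptor CD180 in place of TLR4, had 21 and 12 UMIs under PBS and 40, 33 and 39 with Sema3G. Its log2FC of 0.99 (SE 0.32, limma adjusted p = 0.116) passed on the TMM scale (limma adjusted p = 0.0465) and by edgeR's quasi-likelihood test (adjusted p = 0.0413) but not by DESeq2 (adjusted p = 0.164). It was 0.61 without PBS replicate 2 (limma adjusted p = 0.313) and 1.37 without PBS replicate 1 (limma adjusted p = 0.0826). Its partner Cd180 had 2 and 3 UMIs against 12, 10 and 8 (log2FC 1.32, limma adjusted p = 0.135). The ratio of Ly86 to Ly96 UMIs was 0.174 and 0.112 with PBS and 0.357, 0.375 and 0.429 with Sema3G, without overlap. An exact two-sided permutation test of this ratio gave p = 0.2, the smallest possible.

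Downstream, the 9 listed genes of the IKK and linear ubiquitin complexes and NF-kB had the lowest median of the sublists, -0.45, with 8 of 9 below 0, where 67.5% of all genes were. On the TMM scale 8 of 9 were below 0 as well (median -0.25), against 53.3% of all genes. None passed the adjusted p of limma, as 1.80% of all genes did, and 3 were lower at an unadjusted p below 0.05, against 14.2% of all genes. Rela was the only 1 of 9 at an unadjusted p below 0.05 on the TMM scale (5.09% of all genes were lower), by edgeR's quasi-likelihood test (17.8% in either direction) and by DESeq2 (920 of the 10088 genes in either direction). Tollip, a ubiquitin-binding regulator of IRAK1 (log2FC 0.06, limma adjusted p = 0.913), Traf3, the TRAF of the TRIF branch (-0.04, 0.947), and Map3k7, the kinase TAK1 (-0.10, 0.836), were near 0, and on the TMM scale their values were 0.26, 0.16 and 0.10. Tbk1 and Ikbke, the kinases that phosphorylate IRF3, had values of 0.32 (limma adjusted p = 0.507) and -0.49 (0.203). Tbk1 was at 0.52 after TMM scaling (limma adjusted p = 0.379). Ikbke was at -0.29 after TMM scaling, -0.21 with CPM over listed genes without Rn45s and -0.32 without Sema3G replicate 3. Tnfaip3, the ubiquitin-editing brake A20, had a log2FC of -0.19 (limma adjusted p = 0.812).

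**Figure D4:**
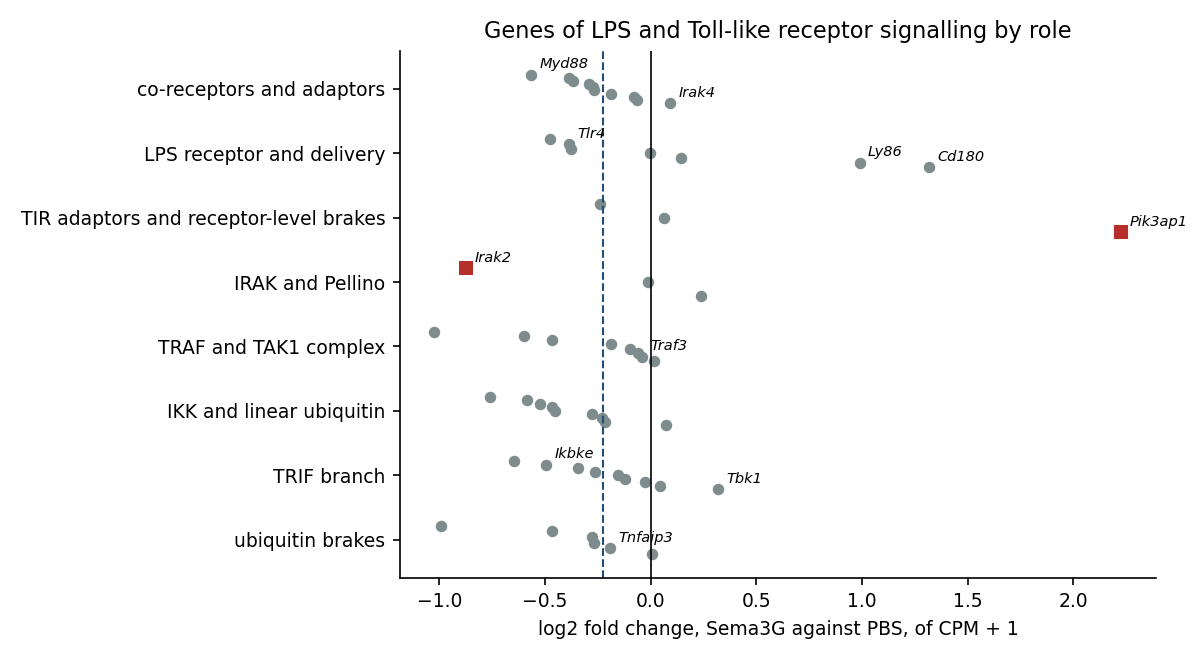
Log2FC (Sema3G minus PBS, log2(CPM + 1) scale) of the 10 genes and of the 45 tested genes of the pathway list by role, 1 point per gene, with the median of all genes as a dashed line at -0.22. Red squares passed an adjusted p of 0.05 in limma, and these are Pik3ap1 at 2.23 and Irak2 at -0.87.

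RNAs that the branches are known to drive were read from 17 genes, of which 14 passed the filter. In limma 0 of 14 passed an adjusted p of 0.05 (1.80% of all genes did) and 0 were below an unadjusted p of 0.05 (21.1%). edgeR's quasi-likelihood test, which covered 11 of the 14, called 0 (4.67% of all genes) and had 1 below an unadjusted p of 0.05 (17.8%). DESeq2 gave an adjusted p for 11 of the 14 and called 0 (3.10% of all genes), with 0 of 14 below an unadjusted p of 0.05 (7.23%). The 1 gene was Cxcl2, a neutrophil-attracting chemokine of the MyD88 branch, named after its values were seen, with 191 and 390 CPM in the PBS libraries and 206, 621 and 620 CPM in the Sema3G libraries (edgeR unadjusted p = 0.0345, adjusted p = 0.237). Its groups overlapped through Sema3G replicate 1, and its log2FC of 0.65 (limma adjusted p = 0.307) was 1.18 without that library (limma adjusted p = 0.0169) and 0.14 without PBS replicate 1 (limma adjusted p = 0.892). Tnf, the inflammatory cytokine of the MyD88 branch, had 27 and 16 UMIs under PBS and 25, 22 and 20 with Sema3G (log2FC -0.05, limma adjusted p = 0.947), and its log2FC was 0.13 on the TMM scale. Ccl5, a chemokine of the TRIF branch, had 947 and 392 UMIs under PBS and 685, 549 and 302 with Sema3G (-0.48, limma adjusted p = 0.419), and the PBS libraries differed by more than the group means. On the TMM scale the log2FC of Ccl5 was -0.28 (limma adjusted p = 0.717). Cxcl10 had 1 UMI in PBS replicate 1 and 0 in the others, and Ifnb1 and Il12b were listed at 0 in all 5 libraries. The broadly expressed gene Ube2v1 of the pathway list was listed at 0 as well, so a listed 0 may also stand for a gene that was not counted.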

How the data were processed

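RNA 3′ end libraries with UMIs were made by the authors from 5 BMM samples with the QuantSeq FWD kit, mapped to mm10 (GRCm38) and counted in Strand NGS, and edgeR served for normalization (version 3.12 per the labels). The methods name neither the gene annotation nor any use of strand in the counting. The deposited values are CPM, made by the authors from UMI counts scaled to a library total, and the columns that hold their own test (p-value, q-value and rank) were not used. The CPM were whole multiples of 1 step per library (100% of values within 0.01 of a whole count), which gave the UMI counts and library totals. The 27 rows whose symbols a spreadsheet had turned into dates are not named, and 11627 of the 24419 rows were at 0 in all libraries.

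A trended limma model (version 3.58.1 under R 4.3.3) was fitted on log2(CPM + 1) for the 10088 genes that averaged 1 CPM or more, and p values were adjusted by Benjamini-Hochberg over all of them. This scale understates changes of low genes. As alternatives the recovered counts were tested with edgeR (4.0.16, quasi-likelihood) and DESeq2 (1.42.0). With 200 genes changed 2-fold in simulated counts of these libraries, limma recovered 51.5% among 10071 genes with 9 false calls, and 97% of those changed 4-fold among 10073 genes with 7 false calls. With 4-fold changes edgeR recovered 97% among 8032 genes and DESeq2 93.5% among 12375 genes, with 4 false calls each. The changed genes averaged 10 CPM or more, which Ticam1 and Cd180 did not, with equal numbers raised and lowered. Spread between replicates was set gene by gene for 2-fold changes and by the trend over level for 4-fold changes. The folds are therefore not directly comparable, and the group difference in Rn45s share was not simulated.

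Depth was 1283029 to 1487137 UMIs on listed genes per library, where 3 counts are 1.35 to 1.67 CPM. The exact and Wilson intervals cover counting error only, whereas the intervals of log2FC come from limma and the spread between libraries. Sema3G replicates 2 and 3 were the most alike libraries (chi-square per degree of freedom 1.77, other pairs 6.57 to 29.6) and were kept apart, since they differed beyond sampling noise. That does not show that they came from separate cultures, and with them merged 19 of all genes passed in place of 182. The genes, lists and tests were chosen with earlier results of these data known. Named are all 10 genes, 10 fixed genes of the pathway list, list genes past the adjusted p, 3 fixed targets otherwise, and the 3 genes most like Cd14 and Myd88 in profile. Other symbols were named for their position, as markers or as Rn45s, and Ube2n, Rela, Ube2v1, Cxcl2, Ifnb1 and Il12b were chosen after their values were seen. Gene positions came from GENCODE M21 (GRCm38) and promoters from RefSeq. A further marker is not reported here.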

Additional observations from a re-analysis of the deposited data

How the results depend on the processing

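The 10 genes were refitted under 16 alternatives that changed the pseudocount, the filter, the scaling or the test, added the replicate block, merged Sema3G replicates 2 and 3, or left out a library. Of the 160 resulting log2 fold changes, 142 kept their direction and their side of the threshold, 17 turned and 1 newly passed. Cd14, Ly96, Myd88, Ticam1, Irak4 and Traf6 kept their direction in all 16, with Myd88 between -0.67 and -0.28. The number of the 10 genes passing was 0 in every alternative except 1 without Sema3G replicate 1 (0 to 1 over libraries left out). The causes of the changes below were not tested.

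Of the pathway list 2 genes passed, against 1 at a pseudocount of 0.1, with no filter, by DESeq2 and with Sema3G replicates 2 and 3 merged, 3 by edgeR's quasi-likelihood test without a filter, 4 with the replicate block, and 1 to 5 with a library left out. Pik3ap1 passed in all 16 alternatives and Irak2 in 5. Of the targets, 1 passed by edgeR's quasi-likelihood test without a filter, and 0 to 1 with a library left out, the 1 being Cxcl2 in both cases. Over all genes 182 passed (160 higher, 22 lower), against 108 with no filter, 325 with TMM scaling (322 higher, 3 lower), 487 with CPM over listed genes without Rn45s (486 higher, 1 lower), 383 by edgeR's quasi-likelihood test (380 higher, 3 lower), 607 by that test without a filter, 19 with Sema3G replicates 2 and 3 merged and 26 to 856 with a library left out. The 856 were without Sema3G replicate 1 (303 higher, 553 lower) and the 26 without Sema3G replicate 2.

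Log2 fold changes turned above 0 with TMM scaling for Ticam2 (0.12), Tirap (0.0068), Irak3 (0.14), Traf3 (0.16), Map3k7 (0.10) and Tnf (0.13). With CPM over listed genes without Rn45s they did so for Ticam2 (0.21), Tirap (0.091), Irak1 (0.018), Irak3 (0.22), Traf3 (0.24), Map3k7 (0.19), Tnfaip3 (0.073) and Tnf (0.22). By edgeR's quasi-likelihood test they were 0.13 for Ticam2, 0.031 for Tirap, 0.18 for Irak3, 0.22 for Traf3, 0.15 for Map3k7, 0.013 for Tnfaip3 and 0.15 for Tnf, and by that test without a filter 0.11 for Ticam2, 0.0096 for Tirap, 0.16 for Irak3, 0.20 for Traf3, 0.13 for Map3k7 and 0.13 for Tnf. By DESeq2 they were 0.10 for Ticam2, 0.15 for Irak3, 0.19 for Traf3, 0.12 for Map3k7 and 0.13 for Tnf. With Sema3G replicates 2 and 3 merged Tnf was 0.029. With a library left out the values ranged from -0.36 to 0.20 for Ticam2, -0.38 to 0.010 for Tirap, -0.18 to 0.31 for Tollip, -0.16 to 0.13 for Traf3, -0.27 to 0.074 for Map3k7, -0.062 to 0.70 for Tbk1, -0.79 to 0.41 for Tnfaip3, -0.42 to 0.31 for Tnf and -1.14 to 0.17 for Ccl5. None of these turned values passed an adjusted p of 0.05.

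The groups share replicate numbers 1 and 2, but nothing in the labels says that a number marks a shared culture or day. Over 10088 genes the deviations of same-numbered libraries correlated at 0.173 for number 1 and 0.111 for number 2, and those of PBS replicate 2 and Sema3G replicate 3, which share no number, at 0.0973. With 2 PBS libraries, PBS replicates 1 and 2 give values of opposite sign by construction, so these do not show a pairing. With the replicate block, a fit with 1 residual degree of freedom, 0 of the 10 genes and 573 of all genes passed (298 higher, 275 lower), Irak2 had a value of -0.89 (limma adjusted p = 0.000901), Myd88 had a value of -0.49 (limma adjusted p = 0.0847) and Tnf turned to 0.052.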
